A study of Mus musculus with 12 samples.

Results

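The 10 genes described here encode receptors through which leptin, melanocortins, ghrelin, neuropeptide Y (NPY), melanin-concentrating hormone (MCH) and the orexins act on feeding and arousal circuits: Lepr, Mc3r, Mc4r, Ghsr, Npy1r, Npy2r, Npy5r, Mchr1, Hcrtr1 and Hcrtr2. They were chosen by name, and every probe whose accession matched one of them was taken. That gave 13 probes for the 10 genes, out of 33390 genes and unnamed transcripts on the array. Of the 10 genes, 9 had a probe that was well above background on 6 or more of the 12 arrays and could be tested, among 24859 genes and transcripts tested in all. The gene left out is Lepr.

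The arrays compared mice without the cytokine interleukin-18 (IL-18), labelled KO, with wild-type littermates, labelled WT. All mice were males of 12 weeks, and the strain label is C57BL/6. KO and WT mice were F2 littermates from a cross of IL-18-/- males with C57BL/6J females, so both groups come from the same mixed parentage. Each of the 6 regions (hypothalamus, hippocampus, amygdala, striatum, olfactory bulb and prefrontal cortex) had 1 KO and 1 WT array, and each array held equal amounts of RNA from 5 pooled mice. Hypothalamus, amygdala and hippocampus came from 1 coronal slice that lay 1.5 to 2.5 mm behind bregma. In whole tissue pieces, fewer cells of a type and less RNA per cell cannot be told apart.

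Leptin from fat tissue acts in the arcuate nucleus of the hypothalamus, where it raises Pomc and lowers Npy and Agrp, the peptides of opposing neuron groups. The melanocortins cut from the POMC protein bind MC3R and MC4R, and AgRP blocks both. NPY acts on Y1, Y2 and Y5 receptors, Y1 and Y5 being known for driving food intake and Y2 for sitting on NPY nerve endings as an autoreceptor. MCH and the orexins are made by separate neurons of the lateral hypothalamus that project over most of the brain, and their receptors are accordingly known from cortex, striatum and hippocampus as well as from the hypothalamus.

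Levels are given throughout as log2 of the processed spot signal minus the 75th percentile of that array, so a level of 0 is a bright spot for its array and 1 unit is a 2-fold difference. Levels of different probes cannot be set against each other. Regions are said to overlap where the ranges of their 2 readings do, with no allowance for the spot error that the scanner software gives. The deleted gene, Il18, had levels of -3.78, -3.12, -4.35, -3.26, -3.45 and -3.70 in KO hypothalamus, hippocampus, amygdala, striatum, olfactory bulb and prefrontal cortex, against 0.75, 0.61, 0.75, 1.12, 0.71 and 0.57 in the WT regions in the same order. The difference, KO minus WT across the 6 regions, was -4.36 (SE 0.161, limma, Benjamini-Hochberg adjusted p = 0.00062).

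Marker genes of the hippocampus, striatum and olfactory bulb were highest on the arrays with those labels, with median levels of 1.58, 2.89 and 3.22 in KO tissue and 1.75, 2.94 and 3.09 in WT tissue. Amygdala markers had a median of 3.16 on the amygdala KO array, the highest of the 12. The array labelled amygdala WT stood apart, with an amygdala marker median of 2.65, against 2.68 on the hypothalamus WT array. Over all genes it was closer to the hypothalamus WT array (Pearson r 0.993 over 24859 genes) than to the amygdala KO array (r 0.981). The amygdala KO array was likewise closer to the hypothalamus KO array (r 0.985) than to the array labelled amygdala WT. The median level of hypothalamus markers was -1.31 on the array labelled amygdala WT, against -1.31 on the hypothalamus WT array and -2.22 on the amygdala KO array. The receptor calls, by region and for KO minus WT, are therefore given with and without the amygdala arrays. Other values without them are given only where stated. The 75th percentile of signal was lowest in the striatum, at 272 for KO and 208 for WT, and lay between 502 and 768 on the other arrays. The slides held 1 region each, so slide and region cannot be told apart, and KO and WT arrays kept the same positions on every slide, so position and genotype cannot be told apart.

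The region comparisons ask where in these 6 tissue pieces each receptor was most abundant. Of the 9 receptors tested, Npy2r varied far more between regions than the others, over 6.91 log2 units across the 12 arrays, and Mc3r least, over 0.69. The low end of the Npy2r range is an olfactory bulb reading not well above background, so its full size is not measured. The Npy2r probe was well above background on 8 arrays, among them all those of hippocampus, amygdala and hypothalamus. By the brightest probe of each of the 9 receptors, the hippocampus had the highest mean level of 5 (Mc4r, Npy1r, Npy2r, Npy5r and Hcrtr2). The hypothalamus had that of Ghsr and Hcrtr1, the prefrontal cortex that of Mc3r and the striatum that of Mchr1. For Ghsr, Mc3r and Mchr1 the highest region overlapped with the next.

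**Figure D1:**
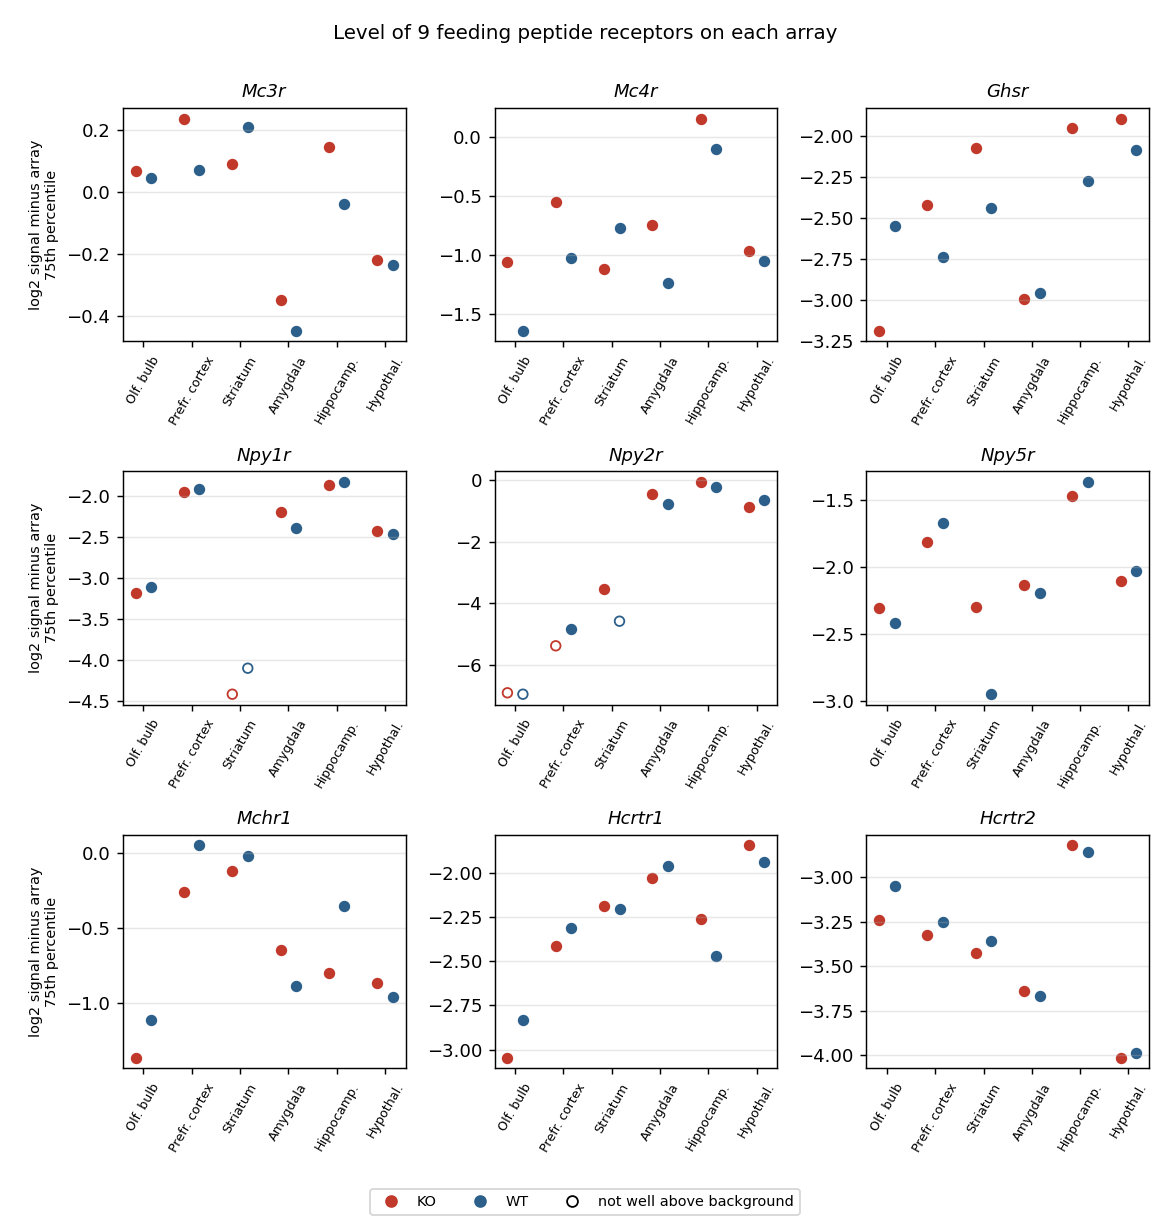
Level of 9 receptors on each of the 12 arrays, as log2 processed signal minus the array's 75th percentile (vertical axis, own scale in each panel), by brain region (horizontal axis). Red points are KO arrays and blue points WT arrays, with 1 array each; open points are not well above background. Npy2r lies between -0.86 and -0.053 on the hippocampus, amygdala and hypothalamus arrays and at -3.55 or below on all others.

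Each region was set against the mean of the other 5 with limma, and a gene was called where its Benjamini-Hochberg adjusted p over all genes was under 0.05 and the difference at least 1 log2 unit. In the hippocampus 2 of the 9 receptors were called higher (Mc4r and Npy2r), where 5.11% of all genes tested were called higher. The amygdala and the hypothalamus had 1 higher each, Npy2r in both cases, against 1.72% and 1.84% of all genes. Calls for a lower level were 1 in the olfactory bulb (Npy2r), 1 in the prefrontal cortex (Npy2r) and 2 in the striatum (Npy1r and Npy2r), where 5.51%, 3.02% and 9.85% of all genes were called lower. The median difference over the 9 receptors was 0.66 in the hippocampus, against 0.088 over all genes, and -0.59 in the olfactory bulb, against 0.036 over all genes. Its value in the hypothalamus was -0.0051, against -0.093 over all genes. Without the amygdala arrays, the hippocampus had 3 higher (Mc4r, Npy1r and Npy2r, with 4.69% of all genes higher) and the striatum 1 lower (Npy1r, with 9.86% lower). Npy2r was again the 1 receptor called lower in the olfactory bulb (5.56% lower) and in the prefrontal cortex (4.69% lower) and the 1 called higher in the hypothalamus (3.1% higher).

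**Figure D2:**
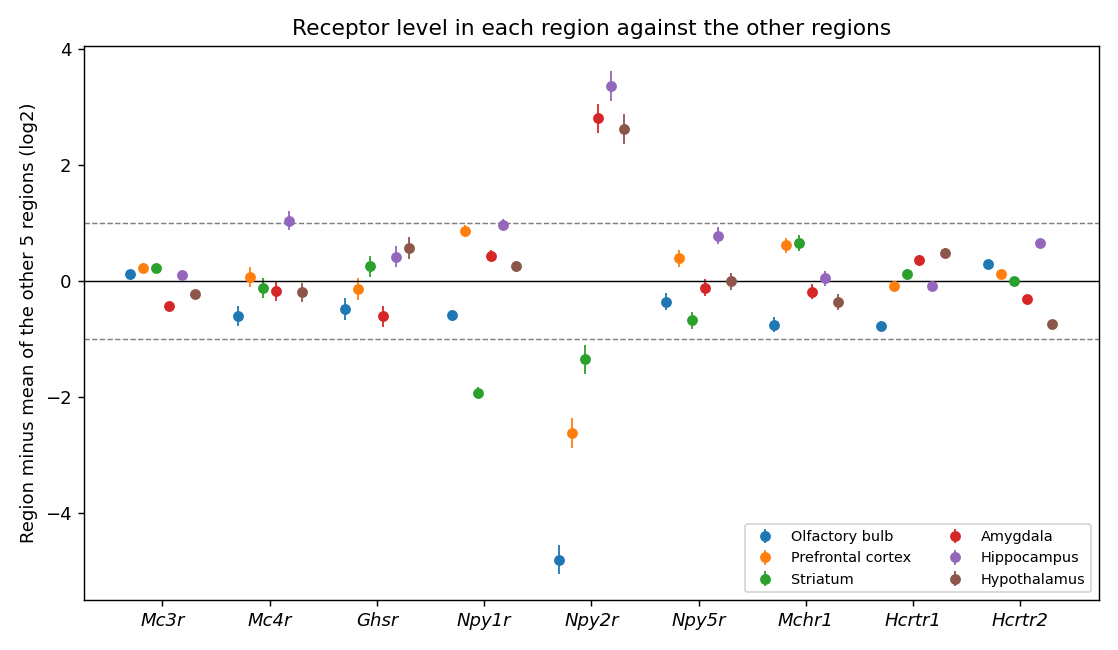
Difference between each region and the mean of the other 5 regions (vertical axis, log2) for 9 receptors (horizontal axis). Points are limma estimates from 12 arrays, bars are their standard errors, and dashed lines mark the size threshold of 1 log2 unit. Points of Npy2r lie past the lines in all 6 regions, those of Npy1r in the striatum and of Mc4r in the hippocampus.

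Npy2r, the Y2 receptor, divided the arrays into 2 sets. Npy2r levels in KO tissue were -0.053 in hippocampus, -0.44 in amygdala, -0.86 in hypothalamus, -3.55 in striatum, -5.39 in prefrontal cortex and -6.92 in olfactory bulb. Npy2r levels in WT tissue were -0.23 in hippocampus, -0.77 in amygdala, -0.65 in hypothalamus, -4.59 in striatum, -4.86 in prefrontal cortex and -6.97 in olfactory bulb. All 6 arrays of the posterior slice lay above the other 6, and there was no overlap between hippocampus and the regions below it. Its probe was not well above background on either olfactory bulb array, on the prefrontal cortex KO array or on the striatum WT array. The background limit of an array is taken as the lowest level of any probe well above background on it. The hippocampus level was 37.8-fold that limit on the olfactory bulb arrays. Probes that are not well above background can read over the limit, so this fold is not a strict lower bound.

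Against the mean of the other 5 regions, Npy2r was higher by 3.36 in the hippocampus (SE 0.254, limma adjusted p = 0.00023), by 2.80 in the amygdala (adjusted p = 0.00084) and by 2.62 in the hypothalamus (adjusted p = 0.0013). It was lower in the olfactory bulb (difference -4.81, adjusted p = 1.9e-05), in the prefrontal cortex (-2.62, adjusted p = 0.00068) and in the striatum (-1.35, adjusted p = 0.0027). Dim readings below the background limit entered these fits as they stood. Without both amygdala arrays the values were 4.08 in the hippocampus and 3.31 in the hypothalamus, and the striatum value of -0.83 no longer met the size threshold. With normexp background correction at an offset of 50, which compresses dim signals, the hippocampus difference was 1.78 (adjusted p = 5.3e-06), the olfactory bulb difference -2.18 and the striatum difference -0.47.

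Markers of other tissues also differed between these 2 sets of arrays, among them those of the choroid plexus, the epithelium that makes cerebrospinal fluid. All 12 measured choroid plexus markers were above background on the amygdala, hippocampus and hypothalamus arrays, against 8 or 9 on the KO arrays and 9 or 10 on the WT arrays of prefrontal cortex and olfactory bulb. In the striatum 11 were above background in KO tissue and 4 in WT tissue. The sum of their signals, in multiples of each array's 75th percentile, was 72.2 in KO and 44.5 in WT hippocampus, 34.1 in KO and 55.2 in WT hypothalamus, and 14.5 in KO amygdala and 55.9 on the array labelled amygdala WT. It was 18.1 in KO and 10.9 in WT striatum, 16.0 in KO and 17.7 in WT prefrontal cortex, and 11.4 in KO and 12.1 in WT olfactory bulb. The choroid plexus sums of the 2 sets of arrays thus overlapped. Thalamus markers had medians from -0.70 to 0.26 and sums from 7.16 to 9.33 on the amygdala, hippocampus and hypothalamus arrays, against medians from -1.50 to -1.08 and sums from 3.46 to 6.19 on the other 6, with 6 or 7 of 8 markers above background on each of the 12. Hippocampus markers had medians of -1.73 or above on the same 6 arrays and of -1.98 or below on the other 6, while their sums overlapped (16.4 to 41.4 against 7.12 to 16.7). The summed endothelium and pericyte markers were lower, at 22.3 to 31.7 against 34.3 to 45.6. The part of these tissues in the Npy2r result was not tested.

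Npy1r, the Y1 receptor, and Npy5r, the Y5 receptor, lie next to each other on chromosome 8 in opposite orientation, with no other protein-coding gene between them in the RefSeq table. Over the 12 arrays their levels had a Pearson r of 0.82, and 0.86 over the 10 arrays without amygdala, the largest among the 36 pairs of tested receptors. These correlations are a description over arrays that share regions, slides and scan days. They include the striatum readings, the lowest of Npy1r, which were not well above background for that gene. The windows from 250 bases before to 50 bases after each transcription start (RefSeq, build GRCm38.p6, 5′ to 3′ on the strand of the gene) are shown for this pair, together with that of Npy2r, the Y receptor with another regional pattern. Npy1r lies at chr8:66697172-66697471 on the plus strand, Npy5r at chr8:66688045-66688344 on the minus strand and Npy2r at chr3:82548036-82548335 on the minus strand. Capitals mark matches to 4 motifs, searched on both strands. The TATA box was read as TATAAA, the CCAAT box by the letters of its name, the GC box as GGGCGG and the cAMP response element as TGACGTCA.
Npy1r: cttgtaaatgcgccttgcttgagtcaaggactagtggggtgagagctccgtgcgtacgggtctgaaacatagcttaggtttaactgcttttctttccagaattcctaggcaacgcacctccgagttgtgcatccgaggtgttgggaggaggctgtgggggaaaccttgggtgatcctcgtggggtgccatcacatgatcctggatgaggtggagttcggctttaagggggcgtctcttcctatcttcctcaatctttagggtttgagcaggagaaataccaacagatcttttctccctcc
Npy5r: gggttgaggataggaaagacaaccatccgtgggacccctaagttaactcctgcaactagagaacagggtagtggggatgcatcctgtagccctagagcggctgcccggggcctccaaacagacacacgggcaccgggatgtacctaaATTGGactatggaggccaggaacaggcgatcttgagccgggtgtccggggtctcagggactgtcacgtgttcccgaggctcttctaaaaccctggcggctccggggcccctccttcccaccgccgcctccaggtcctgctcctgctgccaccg
Npy2r: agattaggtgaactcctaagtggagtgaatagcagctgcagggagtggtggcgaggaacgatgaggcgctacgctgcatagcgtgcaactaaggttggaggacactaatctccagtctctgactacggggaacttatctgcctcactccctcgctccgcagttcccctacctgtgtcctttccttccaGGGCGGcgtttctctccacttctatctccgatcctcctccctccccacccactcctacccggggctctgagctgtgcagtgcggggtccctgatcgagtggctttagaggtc

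The Npy1r window held none of the 4 motifs, the Npy5r window 1 CCAAT box read on the opposite strand, and the Npy2r window 1 GC box. Among 32851 promoter windows of the same length, 37.4% held a CCAAT box, 35.7% a GC box, 13.6% a TATA box and 1.79% a cAMP response element. The windows held 10, 15 and 14 CG pairs in Npy1r, Npy5r and Npy2r, against a median of 7 over all windows. A match is a description of letters and not evidence of a bound factor.

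Npy1r was lowest in the striatum and highest in hippocampus and prefrontal cortex. Npy1r levels in KO tissue were -1.86 in hippocampus, -1.96 in prefrontal cortex, -2.19 in amygdala, -2.42 in hypothalamus, -3.19 in olfactory bulb and -4.42 in striatum. Npy1r levels in WT tissue were -1.83 in hippocampus, -1.92 in prefrontal cortex, -2.39 in amygdala, -2.46 in hypothalamus, -3.11 in olfactory bulb and -4.10 in striatum. No neighbouring regions in this order overlapped, although hippocampus and prefrontal cortex differed by only 0.092 on average. Neither striatum array was well above background for Npy1r. Its level in the hippocampus was 4.39-fold the background limit of the striatum arrays, again not a strict lower bound.

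The striatum difference of Npy1r was -1.93 (SE 0.0955, limma adjusted p = 1.4e-05) against the mean of the other regions. With normexp correction it was -0.088 (adjusted p = 0.39), so the call depends on the background correction. Hippocampus and prefrontal cortex were higher by 0.97 (adjusted p = 0.00062) and 0.86 (adjusted p = 0.0011), both under the size threshold. Without the amygdala arrays the hippocampus value was 1.10 (adjusted p = 0.00051), and that passed.

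Npy5r followed a similar order with a smaller range of 1.59. Npy5r levels in KO tissue were -1.47 in hippocampus, -1.81 in prefrontal cortex, -2.10 in hypothalamus, -2.13 in amygdala, -2.31 in olfactory bulb and -2.30 in striatum. Npy5r levels in WT tissue were -1.36 in hippocampus, -1.67 in prefrontal cortex, -2.03 in hypothalamus, -2.19 in amygdala, -2.42 in olfactory bulb and -2.95 in striatum. The hippocampus stood above every other region without overlap, whereas the lowest regions, olfactory bulb and striatum, overlapped. Its difference was 0.77 in the hippocampus (SE 0.147, limma adjusted p = 0.0075) and -0.68 in the striatum (adjusted p = 0.0055), both under the size threshold. In the striatum the sign turned with normexp correction, to 0.22 (adjusted p = 0.014).

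Mc4r, the melanocortin receptor whose loss causes overeating and obesity in mice and people, was highest in the hippocampus. Mc4r levels in KO tissue were -1.06 in olfactory bulb, -0.97 in hypothalamus, -0.74 in amygdala, -1.12 in striatum, -0.55 in prefrontal cortex and 0.15 in hippocampus. Mc4r levels in WT tissue were -1.64 in olfactory bulb, -1.05 in hypothalamus, -1.24 in amygdala, -0.77 in striatum, -1.03 in prefrontal cortex and -0.11 in hippocampus. Both hippocampus arrays lay above all others, and the 4 regions from prefrontal cortex to hypothalamus overlapped one another in turn. The hippocampus difference was 1.04 (SE 0.170, limma adjusted p = 0.0042), and 1.05 without the amygdala arrays (adjusted p = 0.0070). It was under the size threshold with median scaling, at 0.88, and with normexp correction, at 0.87. In the hypothalamus, where Mc4r in the paraventricular nucleus is known to restrain feeding, the difference was -0.20 (adjusted p = 0.40).

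Mc3r, the other brain melanocortin receptor, known from the arcuate nucleus, was read by 2 probes that differed. The brighter one was well above background on all 12 arrays and nearly flat. Mc3r levels of this probe in KO tissue were 0.24 in prefrontal cortex, 0.090 in striatum, 0.067 in olfactory bulb, 0.15 in hippocampus, -0.22 in hypothalamus and -0.35 in amygdala. Mc3r levels of this probe in WT tissue were 0.070 in prefrontal cortex, 0.21 in striatum, 0.047 in olfactory bulb, -0.039 in hippocampus, -0.24 in hypothalamus and -0.45 in amygdala. Amygdala and hypothalamus were lowest and did not overlap with any other region. The dimmer probe was well above background only on the KO and WT hypothalamus arrays, at -4.92 and -4.86, and read between -5.95 and -5.15 on the other KO arrays and between -5.78 and -5.01 on the other WT arrays. The hypothalamus difference was -0.23 by the brighter probe (limma adjusted p = 0.058) and 0.12 by the mean of both probes (adjusted p = 0.29). Without the amygdala arrays the brighter probe gave -0.33 (adjusted p = 0.018), under the size threshold. Which of the probes reads Mc3r transcripts was not tested.

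**Figure D3:**
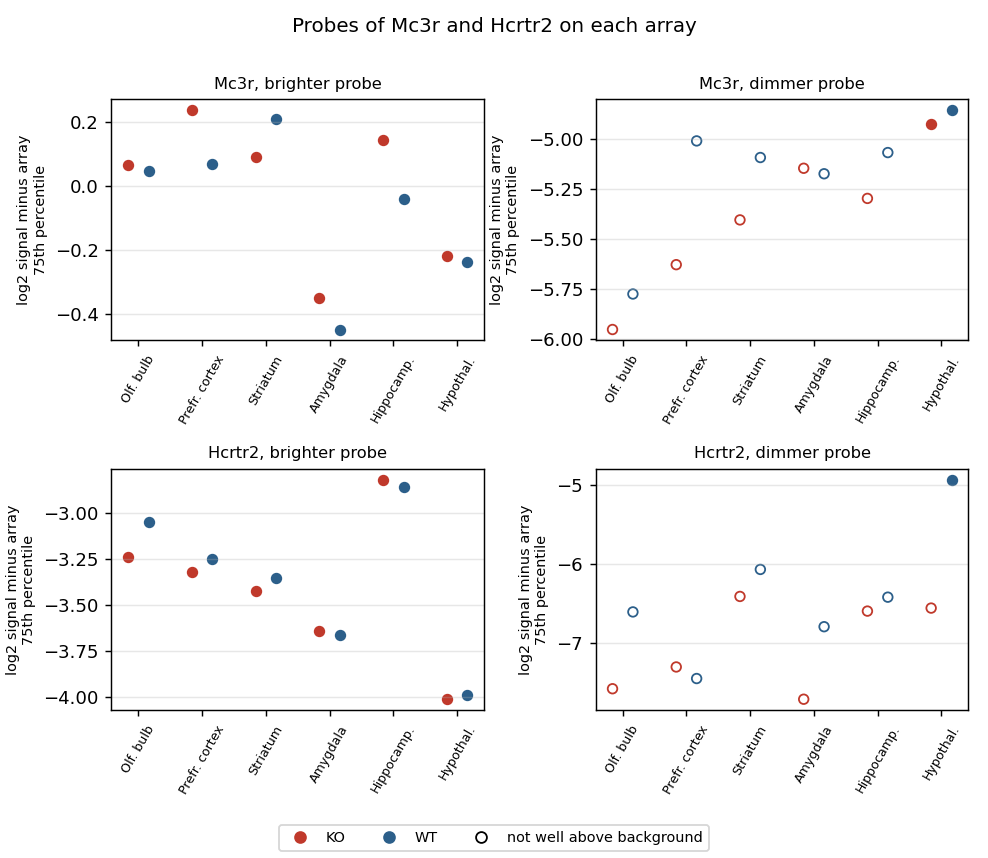
Levels of the brighter and the dimmer probe of Mc3r and Hcrtr2 (vertical axis, log2 processed signal minus the array's 75th percentile, own scale in each panel) by region (horizontal axis), with 1 KO (red) and 1 WT (blue) array each. Open points are not well above background. The brighter probes are low in the hypothalamus, and the dimmer probes are well above background only there, at -4.92 in KO and -4.86 in WT hypothalamus for Mc3r and at -4.93 in WT hypothalamus for Hcrtr2.

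Hcrtr2, the receptor that binds both orexins and whose loss causes narcolepsy in dogs, showed the same kind of disagreement. The brighter probe gave Hcrtr2 its highest level in the hippocampus and its lowest in the hypothalamus. Hcrtr2 levels in KO tissue were -4.01 in hypothalamus, -3.64 in amygdala, -3.43 in striatum, -3.32 in prefrontal cortex, -3.24 in olfactory bulb and -2.82 in hippocampus. Hcrtr2 levels in WT tissue were -3.99 in hypothalamus, -3.67 in amygdala, -3.36 in striatum, -3.25 in prefrontal cortex, -3.05 in olfactory bulb and -2.86 in hippocampus. Readings of neighbouring regions in this order did not overlap. The olfactory bulb KO and prefrontal cortex WT readings, -3.24 and -3.25, were closer than their spot errors of 0.17 each. The difference was 0.66 in the hippocampus (SE 0.0670, limma adjusted p = 0.00069) and -0.74 in the hypothalamus (adjusted p = 0.0011). The dimmer probe was well above background on 1 array, hypothalamus WT, at -4.93, and not on hypothalamus KO, at -6.56. With the mean of both probes the hypothalamus difference turned to 0.20 (adjusted p = 0.37).

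Hcrtr1, the receptor selective for orexin A and known from the locus coeruleus, was highest in the hypothalamus. Hcrtr1 levels in KO tissue were -1.85 in hypothalamus, -2.03 in amygdala, -2.19 in striatum, -2.41 in prefrontal cortex, -2.26 in hippocampus and -3.04 in olfactory bulb. Hcrtr1 levels in WT tissue were -1.94 in hypothalamus, -1.96 in amygdala, -2.21 in striatum, -2.31 in prefrontal cortex, -2.47 in hippocampus and -2.83 in olfactory bulb. The hypothalamus arrays lay above all others and the olfactory bulb arrays below, while prefrontal cortex and hippocampus overlapped. The hypothalamus WT and amygdala WT readings were closer than their spot errors of 0.15 each. The hypothalamus difference of 0.48 (SE 0.0889, limma adjusted p = 0.0094; 0.57 without the amygdala arrays) and the olfactory bulb difference of -0.78 (adjusted p = 0.00048) were under the size threshold. Its levels ran opposite to those of the brighter Hcrtr2 probe, with a Pearson r of -0.67 over the 12 arrays. The Hcrtr2 probes disagreed on the hypothalamus, as given above.

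Ghsr, the ghrelin receptor, was also highest in the hypothalamus. Ghsr levels in KO tissue were -1.89 in hypothalamus, -1.95 in hippocampus, -2.07 in striatum, -2.42 in prefrontal cortex, -3.19 in olfactory bulb and -2.99 in amygdala. Ghsr levels in WT tissue were -2.09 in hypothalamus, -2.27 in hippocampus, -2.44 in striatum, -2.74 in prefrontal cortex, -2.55 in olfactory bulb and -2.95 in amygdala. Each region overlapped with the next in this order, and the hypothalamus difference was 0.57 (SE 0.187, limma adjusted p = 0.058), or 0.46 without the amygdala arrays (adjusted p = 0.11). Ghsr was the receptor that most separated the amygdala from the hypothalamus arrays, by -1.10 between the KO arrays. The array labelled amygdala WT differed from that of the hypothalamus by -0.87. The median absolute difference of the 9 receptors in the second pair was 0.16. A second Ghsr probe was not well above background on any array.

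Mchr1, the MCH receptor, was highest in striatum and prefrontal cortex. Mchr1 levels in KO tissue were -0.12 in striatum, -0.26 in prefrontal cortex, -0.80 in hippocampus, -0.64 in amygdala, -0.86 in hypothalamus and -1.36 in olfactory bulb. Mchr1 levels in WT tissue were -0.015 in striatum, 0.053 in prefrontal cortex, -0.35 in hippocampus, -0.89 in amygdala, -0.96 in hypothalamus and -1.11 in olfactory bulb. Striatum and prefrontal cortex overlapped each other and no other region, and the olfactory bulb arrays were lowest. The differences were 0.65 in the striatum (SE 0.132, limma adjusted p = 0.0039), 0.61 in the prefrontal cortex (adjusted p = 0.013) and -0.75 in the olfactory bulb (adjusted p = 0.0031). All 3 were under the size threshold. In the hypothalamus, where the MCH neurons lie, the Mchr1 difference was -0.36 (adjusted p = 0.076), or -0.42 without the amygdala arrays (adjusted p = 0.024).

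For Lepr, the leptin receptor, no level can be given. The gene makes several transcripts, and which of them its 1 matched probe reads is not known here. The probe was spotted 10 times per array and was not well above background on any of the 12 arrays, hypothalamus included. Readings ran from -7.35 to -6.12 on KO arrays and from -6.88 to -5.81 on WT arrays, all under the background limit, and no order is given to them.

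Scan day moved with some of these patterns. Hippocampus and prefrontal cortex arrays were scanned on 1 day and the other 4 regions on another, and Mc4r, Npy1r and Npy5r were highest in those 2 regions. Within that day, hippocampus minus prefrontal cortex was 0.81 for Mc4r, 0.092 for Npy1r, 0.32 for Npy5r, 0.45 for Hcrtr2 and 4.98 for Npy2r. Among the 4 regions of the other day, each against the mean of the remaining 3, Npy1r was at -1.63 in the striatum, and Npy2r at 3.32 in the amygdala, 3.12 in the hypothalamus and -5.13 in the olfactory bulb. The Hcrtr2 value there was -0.61 in the hypothalamus. Whether the mean of hippocampus and prefrontal cortex differs from the other 4 regions by tissue or by scan day cannot be told apart.

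The genes whose levels were most like each receptor over the 12 arrays, among 14043 named genes, are given by Pearson r as a description. For Npy2r these were Ucma (r 0.97), Lrrn4 (0.97) and Nkain3 (0.97), for Npy1r Tmem200a (0.99), Hspa1a (0.99), a stress-inducible chaperone, and Rabgap1l (0.98), and for Npy5r Tmem74 (0.97), S1pr4 (0.96) and Chgb (0.95), the dense-core granule protein chromogranin B. Mc4r was nearest to Cebpa (0.94), Tbc1d14 (0.92) and Crispld1 (0.91), and Mchr1 to Fam219a (0.98), Prkab2 (0.97), a subunit of AMP-activated protein kinase, and Madd (0.97). Hcrtr1 was nearest to 2810004N23Rik (0.97), Top1mt (0.97) and Rab23 (0.96), and Hcrtr2 to Zfp663 (0.96), the potassium channel gene Kcnn2 (0.95) and Tnnt1 (0.95). Mc3r was nearest to Kash5, Olfr599 and Mep1a (0.93 each), which were 0.84 to 0.86 without the amygdala arrays. For Ghsr the values were lowest, with Vmn1r41 at 0.89, Tctex1d4 at 0.81 and Hbq1b at 0.79.

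The hypothalamus was compared with the rest for the peptides as well. Because the array labelled amygdala WT carried hypothalamic peptides, the values here leave both amygdala arrays out. Of the 9 feeding peptide genes tested, 5 were called higher in the hypothalamus, where 3.1% of all genes were, with a median difference of 3.03 against -0.14 over all genes. The 5 were Pmch, the MCH precursor (9.70, limma adjusted p = 7.2e-05), Hcrt, the orexin precursor (6.79), Pomc (4.76), Cartpt (4.02) and Agrp (3.03). Among the 9 receptors 1 was called, Npy2r, and the median was -0.031. Npy itself, made by interneurons in most of the forebrain, had levels of 1.36 in both KO and WT hypothalamus, below all 4 of these other regions.

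Apart from Npy2r, at 3.31 without the amygdala arrays, the receptors described here had smaller hypothalamus differences than some other receptors of appetite circuits. Of 17 tested, 6 were called higher and 2 lower without the amygdala arrays, where 3.1% of all genes were called higher and 3.87% lower. The 4 largest were Calcr, the calcitonin receptor (5.54, limma adjusted p = 0.00042), Trhr, the thyrotropin-releasing hormone receptor (3.93, adjusted p = 0.00087), the serotonin receptor Htr2c (3.37, adjusted p = 0.00018) and Qrfpr (2.30, adjusted p = 0.0011). Of 10 leptin signalling genes, 0 were called in the hypothalamus. The values of Socs3 and Foxo1, a feedback inhibitor of leptin signalling and a transcription factor downstream of insulin and leptin, were 0.69 and -0.55 with all 12 arrays. Of 6 relatives and partners of the receptors, 1 was called lower, Mrap (-1.03, adjusted p = 0.0099), an accessory protein of melanocortin receptors. The peptides of the amygdala arrays went their own way: Pmch was at -1.63 on the KO array and 6.02 on the array labelled amygdala WT, and Hcrt at -1.30 and 5.77.

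**Figure D4:**
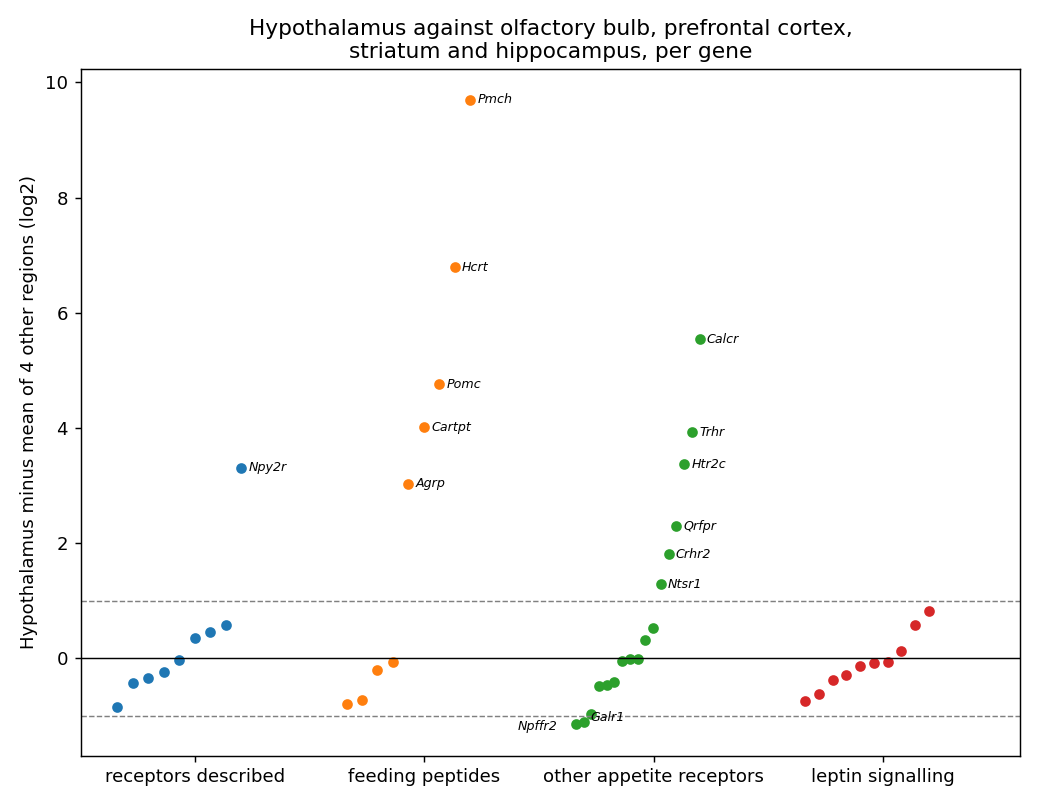
Difference between the hypothalamus and the mean of olfactory bulb, prefrontal cortex, striatum and hippocampus (vertical axis, log2) for single genes in 4 groups (horizontal axis). Points are limma estimates from 10 arrays, dashed lines mark 1 log2 unit, and genes past a line are named. Among the receptors described Npy2r alone lies past the line, at 3.31, while 5 feeding peptides lie between 3.03 and 9.70.

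The KO and WT comparison asks whether loss of IL-18 altered receptor transcripts. Across the 6 regions, with region as a block, 0 of the 9 receptors passed the limma test at an adjusted p under 0.05. The background was 0.0402% of all genes, 10 of 24859, with 5788 genes at an unadjusted p under 0.05. The same count, 0 of 9, was obtained without the amygdala arrays, where 0.00402% of all genes passed. The spread tested is that of the difference between regions, and the pools of different regions may hold the same mice, so p-values speak of how alike the regions were.

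Mc4r had the largest mean difference among the 9, at 0.26 (SE 0.127, limma adjusted p = 0.27). Its KO minus WT difference was 0.59 in the olfactory bulb, 0.47 in the prefrontal cortex, -0.35 in the striatum, 0.49 in the amygdala, 0.26 in the hippocampus and 0.086 in the hypothalamus. KO tissue had the higher reading in 5 of the 6 regions and the lower in the striatum. Without the amygdala arrays the mean was 0.21 (adjusted p = 0.45). Within the scan day of hippocampus and prefrontal cortex the mean was 0.37, and over the other 4 regions 0.20.

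The other receptors lay closer to 0. Npy2r had a mean difference of 0.14 (SE 0.189), Mchr1 of -0.13 (SE 0.0985), Ghsr of 0.086 (SE 0.139), Npy5r of 0.083 (SE 0.110) and Mc3r of 0.062 (SE 0.0568). For Mchr1 the value without the amygdala arrays was -0.20 (limma adjusted p = 0.29). Hcrtr2, Npy1r and Hcrtr1 had means of -0.048 (SE 0.0499), -0.038 (SE 0.0712) and -0.0094 (SE 0.0663). None of the 9 had the same direction in all 6 regions, as 17% of all genes did. Hcrtr2 lies on chromosome 9, as Il18 does, with 264 protein-coding genes between them in the RefSeq table.

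**Figure D5:**
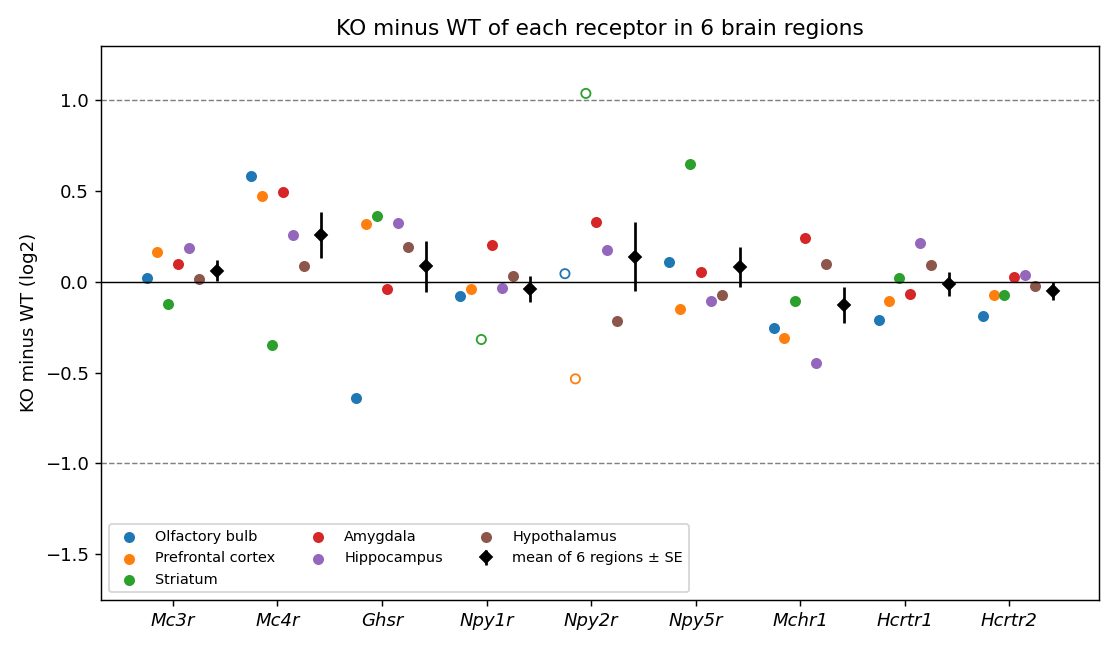
KO minus WT difference (vertical axis, log2) of 9 receptors (horizontal axis) in each of 6 regions (coloured points, 1 KO and 1 WT array each) with the mean of the 6 regions and its standard error (black diamonds). Open points have at least 1 array not well above background, and dashed lines mark a 2-fold difference. No filled point reaches a line, and the farthest is Npy5r in the striatum at 0.65.

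Single regions held 1 array per genotype and could not be tested, and receptors were counted by a size rule of 2-fold where both arrays were well above background. By that rule 0 of 8 receptors differed in the olfactory bulb, 0 of 8 in the prefrontal cortex, 0 of 7 in the striatum and 0 of 9 in each of amygdala, hippocampus and hypothalamus. The shares over all genes were 0.924%, 4.33%, 1.56%, 6.86%, 1.75% and 0.983% in the same order of regions. The largest differences were 0.65 for Npy5r in the striatum, with levels of -2.30 in KO and -2.95 in WT tissue, and -0.64 for Ghsr in the olfactory bulb, with -3.19 in KO and -2.55 in WT tissue. Mc4r in the olfactory bulb followed, at -1.06 in KO and -1.64 in WT tissue. Mchr1 differed most in the hippocampus, by -0.44, with -0.80 in KO and -0.35 in WT tissue.

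Npy2r in the striatum was above background in KO tissue, at -3.55, and not in WT tissue, at -4.59. The KO level was 1.18-fold the background limit of the WT array, which is not a strict lower bound on the difference. The choroid plexus markers moved the same way there, with a median of -1.88 in KO and -4.05 in WT striatum, and their part in this reading was not tested. In the prefrontal cortex the WT reading of -4.86 was above background and the KO reading of -5.39 was not.

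The genes around these receptors gave no call across the 6 regions either: 0 of 9 feeding peptides, 0 of 6 receptor relatives and partners, 0 of 10 leptin signalling genes and 0 of 17 other appetite receptors passed. The largest mean differences were -1.26 for Pmch (SE 1.10, limma adjusted p = 0.52) and -1.16 for Hcrt (SE 1.00, adjusted p = 0.51) among the peptides, -0.53 for Mrap (adjusted p = 0.13), -0.29 for Stat3 (adjusted p = 0.14) and 0.41 for Htr2c (adjusted p = 0.13). In the amygdala 5 of 8 measured feeding peptides (Pmch, Hcrt, Agrp, Pomc and Cartpt) were lower by at least 2-fold in KO tissue, where 6.34% of all genes were. Those differences are against the array that resembled hypothalamus WT. The Pmch and Hcrt means across the 6 regions include that same amygdala pair, whose levels of both peptides are given above. Their means without the pair are not given here. The 9 receptors differed between the same 2 arrays by a median absolute value of 0.10, and Npy2r read -0.44 in KO amygdala and -0.77 on the array labelled amygdala WT.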

How the data were processed

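The 12 arrays were one-colour Agilent arrays labelled with Cy3. The spot intensity values were deposited as output of Agilent Feature Extraction 9.5.3.1, background-subtracted by that software and not scaled between arrays, per the file headers. Flags for spots well above background, saturated or outlying (a score of 0 or 1, per the file headers) come from the same software. The authors also deposited a KO over WT ratio per probe and region, on a linear scale. Over the 39 receptor values listed there, log2 of the authors' deposited ratio differed from the differences computed here by at most 0.0137. Those values hold none for Hcrtr2 and none for Npy5r in the striatum, so this comparison does not cover them.

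Levels were computed as log2 of that intensity, minus its 75th percentile over the 43379 gene spots of each array, leaving out control and outlier spots (61 to 143 per array). No spot was saturated. A RefSeq gene table (GRCm38.p6), searched by unversioned accession, named 22951 of 41174 probes (55.7%). The brightest probe stood for a gene, and it was tested if that probe passed the background flag on 6 or more of 12 arrays. Fits used limma 3.58.1 in R 4.3.3 with Benjamini-Hochberg adjustment, with region as a block for KO minus WT and genotype as a covariate for regions, and were tested on simulated data. The number of arrays, 2 per region, limits the precision of these fits. Whether the 5 mice of a pool recur in other regions is not stated, so p-values measure only the spread between these pools. Alternatives were median and quantile scaling, normexp, other filters and probe rules, the variance model, the authors' ratios and arrays left out. Normexp used the median spot signal, since no mean spot signal column is held in the files.

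The receptors and gene lists were chosen with earlier results of these data known. Genes named are all 10 receptors, the 3 named genes most correlated with each, the 4 list genes past a threshold or else of largest difference, and Il18.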

Additional observations from a re-analysis of the deposited data

Results flagged for a closer look

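For each of the 9 receptors tested, the highest and the lowest KO minus WT difference among the 6 regions was set against the others with Dixon's test, and 1 of the 18 ends stood out. Npy5r in the striatum had a difference of 0.652, with a level of -2.30 in KO and -2.95 in WT tissue, and the next highest region, the olfactory bulb, was at 0.11. The gap was 0.678 of the whole range, over the 95% critical value for 6 values. About 1 in 20 such groups passes by chance. The WT striatum array had the lowest 75th percentile of signal of all 12, 208, and normexp background correction gave a difference of 0.038. Their part in the value was not tested further.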

How the results depend on the processing

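The count for KO minus WT across regions moved most with background correction and then with the variance model. It fell with each region left out. With 10 genes called for KO minus WT across the 6 regions, quantile normalization gave 17, normexp 719, a filter on all 12 arrays 20, trended robust variances 161, and leaving out both amygdala arrays 1, while leaving out each region in turn gave 1 to 5. None of these settings called a receptor. All these fits pair the KO and WT arrays of a region through the region block.

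Region calls numbered 880 for hypothalamus, 1865 for hippocampus, 1768 for amygdala, 5695 for striatum, 1465 for prefrontal cortex and 3124 for olfactory bulb. Normexp gave 381 for hypothalamus, 741 for hippocampus, 462 for amygdala, 663 for prefrontal cortex and 1693 for olfactory bulb. The all-array filter, which tests fewer genes, gave 558 for hypothalamus, 1012 for hippocampus, 990 for amygdala and 976 for prefrontal cortex. No filter gave 9743 in striatum and 1707 in hypothalamus, and quantile normalization 1029 in amygdala. Without the amygdala arrays the hypothalamus had 1734, and without the array labelled amygdala WT the amygdala had 2714. Genes 2-fold apart within a region (243, 431, 1554, 312, 1021 and 237 in the same order of regions) were 57, 97, 564, 69, 210 and 68 with normexp, and 583, 992, 2347, 1088, 1805 and 620 when 1 array above background sufficed. The authors' deposited ratios gave 150 for hypothalamus, 180 for striatum, 663 for prefrontal cortex and 138 for olfactory bulb.

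Of these 2-fold calls, 43.2% were higher in KO hippocampus, 7.59% in amygdala, 51.3% in striatum and 20.0% in prefrontal cortex. Median scaling gave 28.8% in amygdala, 40.5% in striatum and 33.4% in prefrontal cortex, quantile normalization 30.2% in prefrontal cortex, and normexp 32.0% in hippocampus and 21.7% in striatum. Of the genes called across regions 40% were higher, and 27.96% with normexp. Median scaling moved the median difference of all genes in the amygdala to 0.16, against -0.054.

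Some receptor differences turned sign. For KO minus WT these were Npy1r 0.019, Hcrtr1 0.047 and Hcrtr2 0.0080 with median scaling, Hcrtr1 0.035 and Hcrtr2 0.0060 with quantile normalization, Ghsr -0.022, Npy2r -0.027 and Npy5r -0.047 with normexp, and Mc3r -0.084 with the mean of probes. Leaving out 1 region turned Hcrtr1 (0.0024 without amygdala, 0.0094 without prefrontal cortex, 0.031 without olfactory bulb, range -0.054 to 0.031), and without striatum Npy1r (0.018), Npy2r (-0.040) and Npy5r (-0.031), with ranges of -0.086 to 0.018, -0.040 to 0.27 and -0.031 to 0.13 over the 6 regions left out in turn. For regions against the others these were Npy5r in hypothalamus (0.076 with median scaling, 0.044 with quantile normalization), Hcrtr2 in amygdala (0.0023 with quantile normalization), Hcrtr2 in olfactory bulb (-0.092), Npy5r in striatum (0.22), Npy1r in amygdala (-0.043) and Npy1r in hypothalamus (-0.10) with normexp, Hcrtr2 in olfactory bulb (-0.089), Mc3r in hypothalamus (0.12) and Hcrtr2 in hypothalamus (0.20) with the mean of probes, and Npy1r in hypothalamus (-0.14) without the striatum arrays, an alternative chosen after seeing the data. That alternative also took Npy1r in olfactory bulb to -1.02, past the size threshold. The causes were not tested. Of the receptors' values, 401 of the region differences and 117 of the KO minus WT means under an alternative kept their direction and their side of the threshold. Among the other region differences 11 turned sign, 5 fell under the threshold and 2 rose past it. Another 16 KO minus WT means turned sign. Low signal over background limits the readings of the Lepr probe everywhere, of Npy1r in striatum and of Npy2r in the front regions.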
